A study of Mus musculus with 6 samples.

Results

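The otocysts of mouse embryos homozygous for a trapped Chd7 allele were compared with those of wild type embryos of the same age through every gene that the authors listed as different between them. The lists held 1085 genes, of 1167 distinct genes listed in the series as a whole, and they rest on 4 of its 6 libraries, 2 titled Chd7Gt/Gt and 2 titled Chd7+/+. All embryos were taken at embryonic day 10.5 and carry the strain label B6129SF1/J, and the series also has 2 libraries from Chd7Gt/+ embryos. Polyadenylated RNA came from microdissected ears. The Gt allele, in mouse nomenclature a gene trap, is present in every cell of the embryo, so the comparison is not limited to the ear. Embryo sex is not given by the labels, nor whether a genotype's libraries stem from separate embryos. The adjusted p-values therefore measure only the spread between these libraries, which may be technical. For each gene the authors deposited a log2 fold change, homozygous over wild type, with its adjusted p. Values of single libraries were not used here, depth is unknown, and no replicate spread can be set beside a fold.

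Chd7 encodes an ATP-dependent chromatin remodeller that slides nucleosomes at promoters and enhancers, and mutation of the human gene causes CHARGE syndrome, in which the inner ear and the semicircular canals are malformed. At this stage the otocyst is a closed epithelial vesicle that is being patterned into vestibular and cochlear regions. Its ventral wall sheds neuroblasts that form the cochleovestibular ganglion. It is wrapped in periotic mesenchyme and lies against the hindbrain, and both can enter a dissection. Fewer cells of a type and less RNA per cell cannot be told apart in such bulk samples.

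The direction of change was uneven. Of the protein-coding genes in the reference annotation, 1.79% were listed higher and 2.96% lower, so that 61.7% of the 1085 listed genes were lower in homozygotes. By the authors' deposited table the 416 higher genes had a median log2 fold of 1.31 and the 669 lower genes one of -1.35. A log2 fold of -2 or below was listed for 165 genes and one of 2 or above for 104. Chd7 itself, which checks the labels, was at 22.4% of wild type (log2 -2.16, adjusted p 1.54e-10 by the test of the authors' deposited table). The X-inactivation transcript Xist had the largest fold, 9.64 (log2 folds from the authors' deposited table). It was the 1 gene listed among 16 in a list of X-inactivation and Y-linked genes, and of the other genes on the X chromosome 15 were higher and 20 lower. No Y-linked gene was listed, and what the Xist value reflects was not tested.

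**Figure D1:**
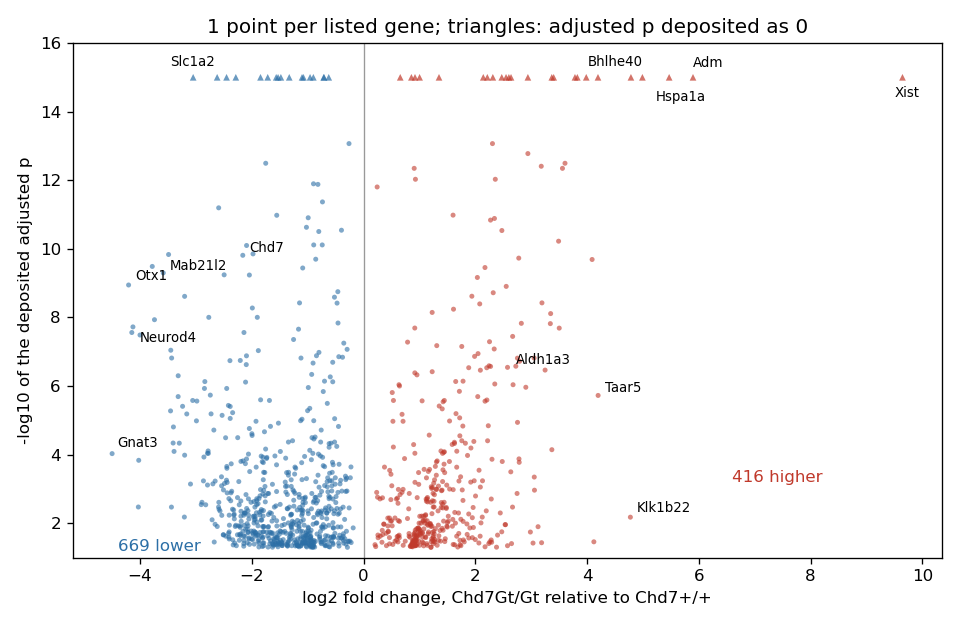
Each point is a gene listed for homozygous against wild type otocysts, with its log2 fold change on the horizontal axis and the negative log10 of its adjusted p on the vertical axis, both from the authors' deposited table. The 416 higher genes are red, the 669 lower genes blue, and triangles in the top row mark the 41 genes whose adjusted p was deposited as 0.

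Longest annotated transcripts were shorter among the higher genes, with a median of 2698 nt over 413 genes, than among the lower genes, with a median of 4868 nt over 665 genes. The part of transcript length in the direction of the calls was not tested. Median lengths are given below beside some, but not all, of the groups that lie far from these medians. Each functional group is described by how many of its genes were listed in each direction, to be read against the 61.7% of all listed genes that were lower. Its counts are also to be read against the 1.79% of protein-coding genes listed higher and the 2.96% listed lower. Statements on a group cover its listed genes alone, since the other members did not pass the authors' test. With an adjusted p of at most 0.01, called the 0.01 level below, 253 genes were higher and 394 lower, and the counts of a list at that level are given where they change its reading.

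Transcription factors of the homeobox, paired and POU classes that were listed were lower with few exceptions. Of 201 genes in that list 32 were listed lower and 2 higher, and the lower ones had a median log2 fold of -2.38 by the authors' deposited table, against -1.35 for all lower genes. The 32 include the zinc finger genes Prdm2 (-0.91) and Prdm16 (-0.57), which are not of these classes. The list also omits the homeobox gene Prox2 (-2.07), which was listed lower (log2 folds from the authors' deposited table). Otx1, which patterns the lateral canal and the sensory epithelia of the inner ear, had a log2 fold of -4.20 by the authors' deposited table, 5.42% of the wild type level. Pou3f4, mutated in an X-linked deafness, was at 6.25% of the wild type level by the authors' deposited table. As log2 values in the authors' deposited table, Lhx8 was at -4.03 and Gsx1, a factor of the dorsal neural tube, at -3.39. Relatives were often listed together. The LIM homeobox class had Lhx2, Lhx3, Lhx5, Lhx8, Lhx9, Isl1 and Isl2, the neuronal Onecut family had Onecut1, Onecut2 and Onecut3, and the Barhl and Dlx families had Barhl1, Barhl2, Dlx1 and Dlx2. Their log2 folds ran from -4.03 for Lhx8 to -1.79 for Onecut2 in the authors' deposited table. The exceptions were Irx6, at 1.79, and the ventral neural tube factor Nkx6-2, at 1.13 as log2 folds in the authors' deposited table.

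The list of basic helix-loop-helix factors had 10 lower and 4 higher of 93. It omits the family member Msc, which was listed lower (log2 -2.46 in the authors' deposited table). Proneural and early neuronal factors and the Hes and Hey relatives Heyl, Hes5 and Hes6 made up most of the lower ones. Neurod4 was at -4.13, Nhlh2 at -2.34, Nhlh1 at -2.09 and Neurod1 at -1.83 in the log2 values of the authors' deposited table. The 4 higher genes were Bhlhe40 (4.79), Bhlhe41 (4.09), Ascl2 (2.58) and Mxi1 (0.59), again as log2 folds of the authors' deposited table. Bhlhe40 and Bhlhe41 are repressors of the circadian clock that also respond to low oxygen, Ascl2 is an imprinted gene of the placenta, and Mxi1 antagonises Myc. Among SOX, forkhead, T-box, GATA and other factor families, 13 were higher and 14 lower of 204, a split that became 12 higher and 10 lower when absolute log2 folds of 1 or more were required. Gata6, an endoderm and heart factor, rose with a log2 fold of 2.78, and Rora, a nuclear receptor of the clock, with one of 2.75 in the authors' deposited table. Foxn4, which acts in neural progenitors, fell by 2.31 in log2 units by the authors' deposited table.

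A pair of relatives of the Caenorhabditis elegans mab-21 gene, which act in eye and body patterning in the mouse and stand in none of the gene lists, were among the largest falls. Mab21l2 was at 8.34% of the wild type level (log2 -3.58, adjusted p 5.02e-10) and Mab21l1 at 9.25% (log2 -3.43, adjusted p 1.52e-07) by the authors' deposited table. The longest Mab21l1 transcript shared 0 of its stretches of 50 nt with transcripts of Mab21l2. Only identical stretches were counted, and reads mapped with mismatches were not tested.

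**Figure D2:**
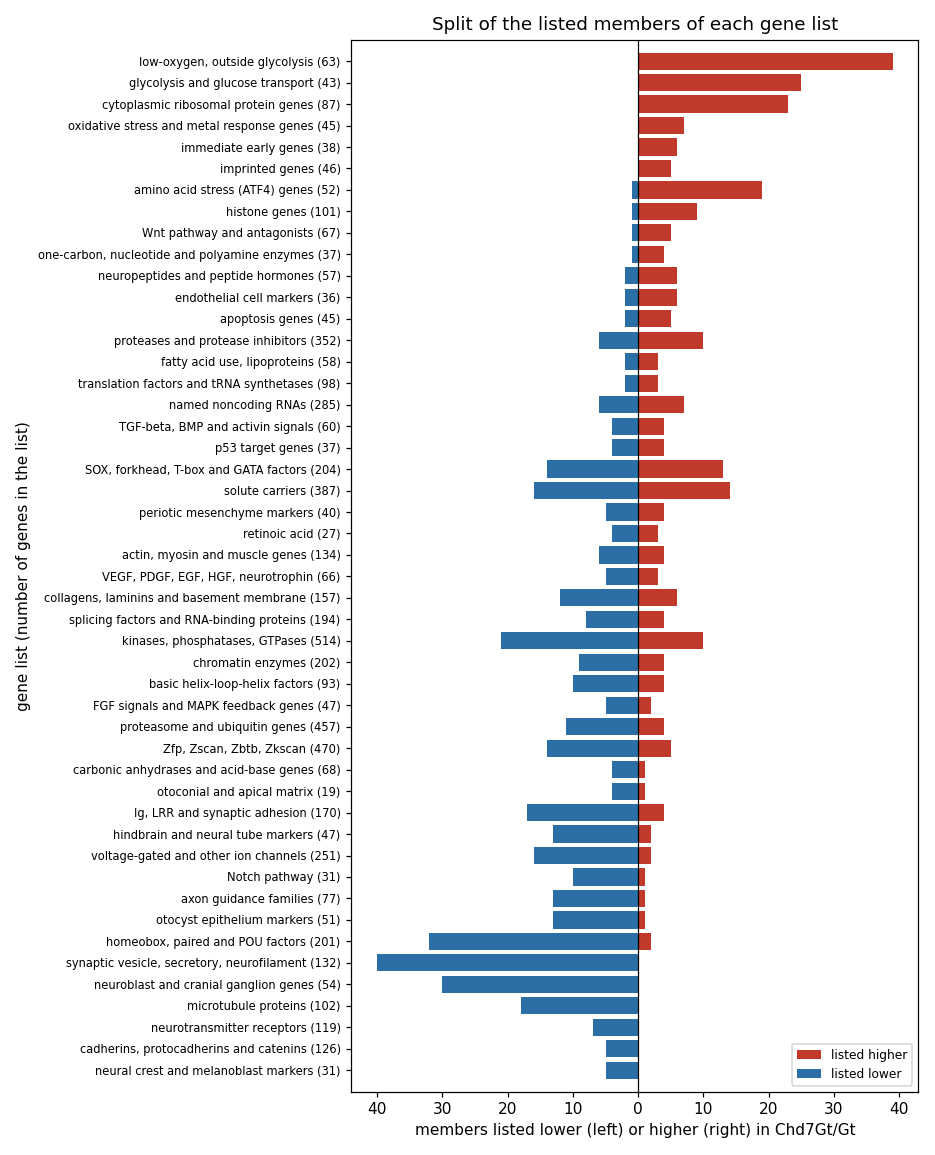
Bars to the left count members listed lower and bars to the right members listed higher in homozygous otocysts, for the gene lists with at least 5 listed members; the number of genes in each list stands in parentheses. Glycolysis (25 higher, 0 lower) and low-oxygen genes (39 and 0) lie at one end. The list of synaptic, neurofilament and other neuronal genes (0 higher, 40 lower) lies at the other.

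The listed genes of differentiating neurons, from the cytoskeleton to the synapse, were lower. Of 132 genes in a list of synaptic vesicle, neurosecretory, neurofilament and other neuronal genes 40 were listed and 92 were not, all 40 lower. Their median log2 fold was -2.14 by the authors' deposited table. The 40 include transcription factors (Scrt1, Scrt2, St18, Myt1, Insm1), RNA-binding genes, the sodium channel gene Scn3a, the stathmins and Tubb3. Scn3a, the stathmins and Tubb3 are counted again in the channel or microtubule lists below, and some of the 40 in the neuroblast list. The vesicle genes among the 40 covered the glutamate loading of vesicles (Slc17a6, -3.20), the priming of dense-core vesicles (Cadps, -2.85), membrane fusion (Snap25, -2.47), the vesicle phosphoproteins Syn2 (-2.39) and Syn1 (-2.36), and the calcium sensors Syt1 (-2.14) and Syt2 (-2.07), all log2 folds of the authors' deposited table. The neuronal intermediate filament genes listed were lower, with Prph at -2.53, Ina at -2.45, Nefl at -2.14 and Nefm at -1.99 (log2 folds from the authors' deposited table). Gamma-synuclein, Sncg, was lower still, at -3.45 (log2) by the authors' deposited table.

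Axons are built on stabilised microtubules, and the listed genes of this system were all lower. Of 102 tubulin, kinesin, dynein and microtubule protein genes 18 were listed and 84 were not, all 18 lower, and their median log2 fold was -1.55 by the authors' deposited table. The stathmins Stmn2 (-2.49), Stmn3 (-2.19) and Stmn4 (-2.13), which bind free tubulin, were followed by the microtubule-associated proteins Mtap2 (-2.04), Mapt (-2.04) and Mtap1a (-1.88), the axonal motor Kif5a (-1.98) and the neuronal tubulin Tubb3 (-1.90) in the log2 values of the authors' deposited table. A further list of kinases, collapsin response mediators and axon maintenance genes, put together after its values were seen, held 25 listed genes of 44, all 25 lower. In it the microtubule-associated kinase Mast1 was at -2.26, the polarity kinase Brsk2 at -2.10, the tau kinase Ttbk1 at -2.05 and the Cdk5 activators Cdk5r2 and Cdk5r1 at -2.01 and -1.84 (log2 folds from the authors' deposited table). Both an enzyme that keeps axons alive, Nmnat2 (-1.94), and one that destroys them after injury, Sarm1 (-1.55), were lower in the authors' deposited table.

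Of the genes of membrane excitability, 233 ion channel genes and 112 neurotransmitter receptor genes were not listed, and those listed were mostly lower. Ion channels had 16 lower and 2 higher of 251, 10 and 1 at the 0.01 level, and the lower ones had a median longest transcript of 6620 nt. The sodium channel genes Scn9a (-3.45), Scn3a (-2.73) and Scn3b (-2.20), the sodium leak channel gene Nalcn (-2.45), the potassium channel gene Kcna5 (-2.29) and the connexin gene Gja5 (-2.26) had the largest falls as log2 folds in the authors' deposited table. The 2 higher channel genes were the connexin gene Gja6 (3.19) and the potassium channel subunit gene Kcne3 (1.45), as log2 folds of the authors' deposited table. Neurotransmitter receptors had 7 lower and 0 higher of 119, among them the glycine receptor gene Glra1 (-2.82), the metabotropic glutamate receptor gene Grm2 (-2.32) and the nicotinic receptor genes Chrnb2 (-1.89) and Chrna4 (-1.33) in the log2 values of the authors' deposited table. Active zone and vesicle recycling genes, a list made after its values were seen, had 11 lower and 0 higher of 40, 6 and 0 at the 0.01 level, with the scaffold genes Bsn at -1.80 and Pclo at -1.49 (log2 folds from the authors' deposited table). These 11 had a median longest transcript of 7090 nt.

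The listed adhesion and guidance genes were mostly lower, and most members of these lists were not listed. The immunoglobulin, leucine-rich repeat and synaptic adhesion list had 17 lower and 4 higher of 170. Slitrk6, which is required for innervation of the inner ear, was at 7.27% of the wild type level in the authors' deposited table (log2 -3.78). Chl1 (-3.32), Cntn2 (-2.59) and Nfasc (-1.84), which join axons to axons or to glia, were also lower as log2 folds in the authors' deposited table. The higher members included Igsf9b (1.25) and the FGF-interacting adhesion gene Flrt3 (0.79) as log2 folds of the authors' deposited table. Ephrins, semaphorins, netrins, slits and their receptors had 13 lower and 1 higher of 77, with a median longest transcript of 6856 nt for the lower ones. The higher one, Efna1 (log2 1.25 in the authors' deposited table), is also a gene of the low-oxygen list. Cadherins and catenins had 5 lower and 0 higher of 126, and 1 lower at the 0.01 level. The 5 are 3.97% of that list, beside 2.96% of all protein-coding genes listed lower. Their median longest transcript was 7524 nt, over the 4 with a known length. One of the 5 was Pcdh15, a tip-link component of hair cells and a deafness gene, at -1.44 in the log2 values of the authors' deposited table.

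In a list of glycosyltransferases and sulphotransferases made after its values were seen, 10 were lower and 3 higher of 125, and 3 lower and 2 higher at the 0.01 level. Polysialic acid is added to the neural cell adhesion molecule by St8sia4 and St8sia2, which were at -2.16 and -1.29 (log2 folds from the authors' deposited table). The N-glycan branching enzymes Mgat4c (-2.13) and Mgat5b (-1.55), the Lewis X enzyme Fut9 (-1.60) and the heparan sulphate sulphotransferase Ndst3 (-1.93) were lower, and Galnt3 (1.54), St3gal1 (1.02) and B3gnt5 (0.92) were higher as log2 folds in the authors' deposited table.

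Of 194 splicing and RNA-binding protein genes 8 were lower and 4 higher. The 3 largest falls belonged to regulators of neuronal exons, Celf3 (-2.74), Srrm4 (-2.39), which is required for hair cell function, and Srrm3 (-2.11) in the log2 values of the authors' deposited table. The general factors listed lower moved less, with Srsf1 at -0.24 and Hnrnpm at -0.36 (log2 folds from the authors' deposited table). The pluripotency-associated RNA-binding gene Lin28a was higher, with a log2 fold of 1.44 by the authors' deposited table. Neuronal RNA-binding genes of the synaptic list, Elavl4 (-2.29), Elavl3 (-2.10), Elavl2 (-1.48), Rbfox1 (-2.11), Nova1 (-1.87) and Nova2 (-1.81), were all lower as log2 folds in the authors' deposited table.

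Solute carriers were listed in both directions, 14 higher and 16 lower of 387. At an adjusted p of at most 0.01 the split was 12 higher and 10 lower. By the authors' deposited table, the higher carriers included the glucose transporters Slc2a3 (log2 4.20) and Slc2a1 (2.55). Lactate and other monocarboxylates are carried by Slc16a3 (2.64) and Slc16a1 (1.08), and 2 further members of that family, Slc16a9 (2.79) and Slc16a6 (2.32), were higher in the log2 values of the authors' deposited table. Cationic and large neutral amino acids are carried by Slc7a3 (2.90), Slc7a1 (1.41) and the heterodimer of Slc3a2 (1.54) and Slc7a5 (1.26), with log2 folds from the authors' deposited table. The lower carriers moved varied substrates. Beside the vesicular carrier Slc17a6, the glial glutamate carrier Slc1a2 was at -3.05, with an adjusted p given as 0, and the glycine carrier Slc6a5 at -2.04 (log2 folds from the authors' deposited table). The chloride transporter Slc26a9 (-2.06) and the red cell anion exchanger Slc4a1 (-1.31) were lower in the authors' deposited table, as were members of the Slc45 and Slco families of sugar and organic anion carriers. Slc37a4 (1.48) and Slc37a1 (-1.64), of a sugar phosphate family, had opposite signs as log2 folds of the authors' deposited table.

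Neuropeptides, peptide hormones and vasoactive peptides had 6 higher and 2 lower of 57, and their receptors had 0 higher and 4 lower of 52. At the 0.01 level the peptides had 4 higher and 1 lower and the receptors 0 in either direction. Adm, a vasodilator peptide, rose 59.5-fold (log2 5.90) in the authors' deposited table. The stanniocalcins Stc2 (3.61) and Stc1 (2.35), the vasoconstrictor Edn1 (2.29), cholecystokinin, Cck (2.28), and apelin, Apln (1.21), were the other higher ones as log2 folds in the authors' deposited table. The apelin receptor gene Aplnr was lower at -0.97 and the neurotensin receptor gene Ntsr1 at -2.22 in the log2 values of the authors' deposited table. The 2 lower peptides, Chga (-1.88) and Scg3 (-1.75), are granins of secretory vesicles, in the authors' deposited table as in the synaptic list.

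Growth factor genes of the VEGF family went both ways, with the angiogenic Vegfa at 2.22 and Vegfb at 0.96, and the lymphatic Figf (Vegfd) at -1.93 (log2 folds from the authors' deposited table). The neurotrophin receptor gene Ngfr (-1.74) and the GDNF receptor genes Ret (-1.20) and Gfra1 (-1.08) were lower in the authors' deposited table. The growth factor list as a whole had 3 higher and 5 lower of 66, and 3 higher and 2 lower at an adjusted p of at most 0.01. TGF-beta and BMP genes had 4 higher and 4 lower of 60, and 2 and 4 at the 0.01 level. The ligands Gdf7 (2.40), Bmp2 (1.90) and Bmp4 (1.78) rose beside the BMP inhibitor Noggin, Nog (2.76), while the inhibitor Chrdl1 (-1.82) fell as log2 folds in the authors' deposited table. FGF genes had 2 higher and 5 lower of 47, and 2 and 3 at the 0.01 level. Fgf15 was 14.2-fold higher and Fgf20 was at 6.15% of the wild type level in the authors' deposited table, and Fgf10 (log2 -1.96) and the FGF-induced factors Etv5 (-1.79) and Etv4 (-1.78) were lower in the authors' deposited table.

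The Wnt list had 5 higher and 1 lower of 67, 3 and 0 at the 0.01 level, led by Wnt1 (3.19) and Wnt11 (2.10), with the Wnt cargo receptor Wls at 0.90 and the receptor Fzd6 at -1.05 in the log2 values of the authors' deposited table. Notch genes had 10 lower and 1 higher of 31, 6 and 1 at the 0.01 level, and the higher one, Dlk1 (log2 1.61 in the authors' deposited table), is a divergent ligand and an imprinted gene. In the retinoic acid list, 3 higher and 4 lower of 27, the synthetic enzymes were divided, with Aldh1a3 at 2.58 and Aldh1a2 and Aldh1a1 at -2.70 and -2.59 (log2 folds from the authors' deposited table). In the hedgehog list 1 of 19 was listed, Disp2 (log2 -1.79 in the authors' deposited table).

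Insulin-like growth factor binding was read from a list of 17 genes made after its values were seen, with 4 higher and 2 lower. The protease Pappa, which frees IGF by cutting its binding proteins, was higher at 1.42 and its relative Pappa2 lower at -1.58 as log2 folds in the authors' deposited table. Stc1 and Stc2, which inhibit Pappa, were the other 2 higher genes beside Igfbp2 (log2 1.21 in the authors' deposited table).

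Collagens, laminins and other matrix genes had 12 lower and 6 higher of 157, 66.7% lower, which is near the share of all listed genes, and 5 lower and 3 higher at the 0.01 level. The fibril-associated Col14a1 (-2.66), the matricellular Postn (-2.62), and the small proteoglycans Lum (-2.45) and Kera (-2.40) had the largest falls in the log2 values of the authors' deposited table. Cartilage collagen genes Col9a3 (-1.29) and Col9a2 (-1.07) were lower too in the authors' deposited table. Collagen-modifying enzymes, a list made after its values were seen, had 9 higher and 1 lower of 22, and Lox and Loxl2 stand in the matrix list as well. The prolyl hydroxylases P4ha2 (2.60) and P4ha1 (2.55), the lysyl hydroxylases Plod2 (1.35) and Plod1 (0.98) and the crosslinking oxidases Lox (1.67) and Loxl2 (1.12) rose (log2 folds from the authors' deposited table). Of the 9, these 6 enzymes also stand in the low-oxygen list. The 1 lower enzyme was the procollagen protease Bmp1 (-0.86), whose enhancer protein Pcolce was higher at 1.02 as log2 folds in the authors' deposited table.

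Genes of the matrix that the otocyst makes for its own sensory organs were mostly lower where listed. Otol1, the otoconial collagen-like scaffold, was at 5.64% of the wild type level, and the otoconial protein gene Oc90 at -2.21 in the log2 values of the authors' deposited table. Otogl (-2.90) and Otoa (-1.80), components of the gels over the sensory epithelia and deafness genes, were lower by the authors' deposited table, and Sparcl1 (0.91) was the 1 higher member of that list of 19. The list of proteases and inhibitors had 10 higher and 6 lower of 352, and 4 higher and 5 lower at an adjusted p of at most 0.01. It omits the endopeptidase gene Ecel1, which was listed lower, also at the 0.01 level. In either direction 4.55% of the list was listed, near the background of 1.79% higher and 2.96% lower over all protein-coding genes. The tissue kallikrein gene Klk1b22 had a log2 fold of 4.78 by the authors' deposited table. Its longest transcript shared 2.23% of its 50-nt stretches with that of its neighbour Klk1b9. Integrins had 1 higher, Itga8 (1.67), and 3 lower, of which 0 at the 0.01 level, with Itga7 (-2.21) the lowest (log2 folds from the authors' deposited table).

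**Figure D3:**
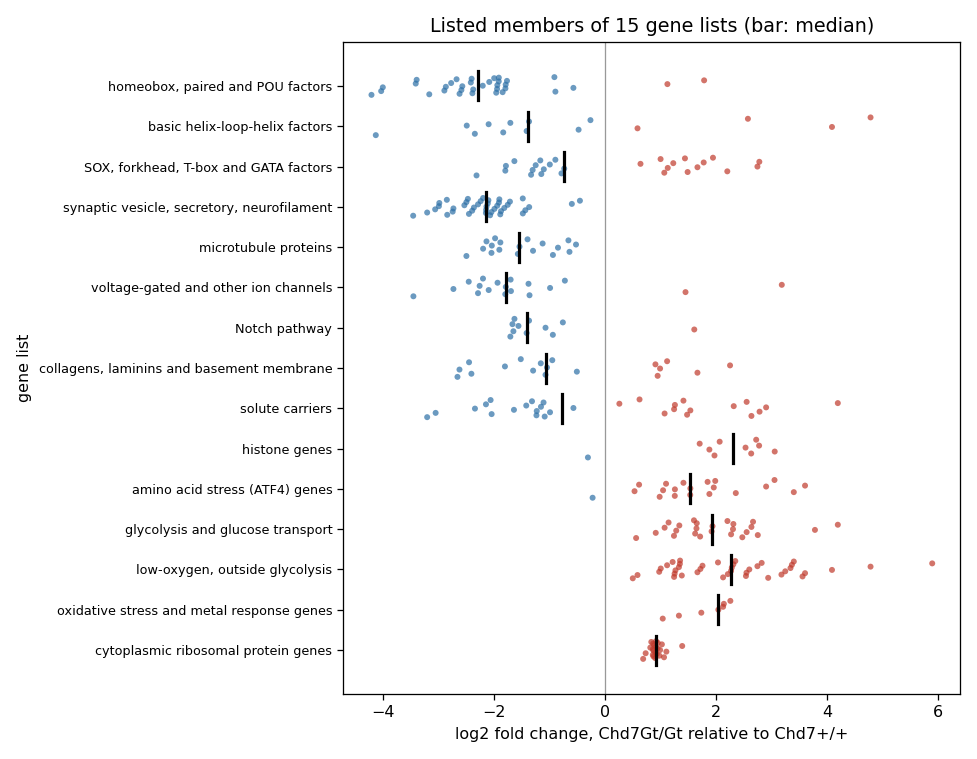
Points are the listed members of 15 gene lists at their log2 fold change in homozygous relative to wild type otocysts, from the authors' deposited table, and black bars are medians over the listed members. Ribosomal protein genes sit close around 0.91, low-oxygen genes spread from 0.50 to 5.90, and solute carriers and the SOX, forkhead, T-box and GATA factors lie on both sides of 0.

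When oxygen is short, hypoxia-inducible factors are stabilised, bind promoters at the core letters ACGTG and raise glucose uptake, glycolysis and blood vessel signals. All 25 listed genes of the 43 in the glycolysis list were higher, median log2 fold 1.92, and all 39 listed of 63 in the low-oxygen list were higher, median 2.27, by the authors' deposited table. The brain enolase gene Eno2 was 13.8-fold higher in the authors' deposited table. Some genes of glycogen storage, picked after their values were seen and with no list of their own, were higher. They were glycogen synthase, Gys1 (1.28), glycogen phosphorylase, Pygl (1.60), phosphoglucomutase, Pgm2 (1.65), and the targeting subunits Ppp1r3c (2.67) and Ppp1r3g (1.88), as log2 folds in the authors' deposited table. Gys1, Pygl, Pgm2 and Ppp1r3c belong to the glycolysis list and are already counted among its 25 listed genes. Ppp1r3g belongs to the list of kinases, phosphatases and small GTPase regulators.

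Of 88 respiratory chain subunit genes 4 were higher and 0 lower, and 2 were higher at the 0.01 level. Ndufa4l2 (3.56) and Cox4i2 (3.25) are alternative forms of standard subunits that low oxygen induces, and the other 2, Cox6b2 (0.92) and Ndufv3 (0.91), had smaller log2 folds in the authors' deposited table. None of 75 mitochondrial ribosome genes was listed in either direction. Removal of mitochondria is promoted by Bnip3 (3.37) and Bnip3l (1.39), which rose in the log2 values of the authors' deposited table. The sensors that mark hypoxia-inducible factors for destruction, Egln3 (3.18) and Egln1 (1.76), were higher, as were the pH-regulating carbonic anhydrase Car9 (3.34) and the blood cell hormone Epo (2.54) (log2 folds from the authors' deposited table). The red cell isoform Car2 was lower, at -1.23 (log2) by the authors' deposited table. Transcripts of the mitochondrial protein gene Mgarp, deposited as 4930583H14Rik, were 15.8-fold higher in the authors' deposited table.

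In the cholesterol and fatty acid synthesis list 1 of 43 genes was listed, Acly at -0.24 in the log2 values of the authors' deposited table. The lipoprotein receptor genes diverged, with Vldlr at 2.36 and Lrp8, the other reelin receptor, at -1.30 (log2 folds from the authors' deposited table).

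Promoters were read for the low-oxygen, amino acid stress and heat shock genes. Each window runs from 250 bases before to 50 bases after the annotated start, from RefSeq on GRCm38.p6, and motifs were searched on both strands. Over 17492 protein-coding genes with a window 20.7% held ACGTG, and of the glycolysis members 14 of 24 with a window did, 58.3%. Among other listed groups, the windows of immediate early genes held it in 3 of 6, histone genes in 1 of 8 and heat shock chaperone genes in 0 of 4. It was also held by 8 of 17 ribosomal protein windows, and by 33.8% of the windows of all higher genes and 17.5% of those of all lower genes. In these last groups under 80% of the genes had a window. The heat shock core GAANNTTC was held by 7.33% of all windows and by those of all 4 listed heat shock chaperone genes, 3 of them higher and 1 lower. The amino acid response element TTGCATCA was held by 0.909% of all windows and by 3 of the 13 available windows of the amino acid stress genes. For that list and for the low-oxygen list, with 19 of 28, under 80% of the members had a window, so those shares are void as a check. The windows below belong to Bnip3 (chr7:138909457-138909756, minus strand), Bhlhe41 (chr6:145865371-145865670, minus strand), Chac1 (chr2:119350992-119351291, plus strand), Hspa1a (chr17:34972107-34972406, minus strand) and Hspa1b (chr17:34959189-34959488, minus strand). They are shown because each holds its group's motif, in capitals. A match is a description of the letters and not a binding site.
Bnip3: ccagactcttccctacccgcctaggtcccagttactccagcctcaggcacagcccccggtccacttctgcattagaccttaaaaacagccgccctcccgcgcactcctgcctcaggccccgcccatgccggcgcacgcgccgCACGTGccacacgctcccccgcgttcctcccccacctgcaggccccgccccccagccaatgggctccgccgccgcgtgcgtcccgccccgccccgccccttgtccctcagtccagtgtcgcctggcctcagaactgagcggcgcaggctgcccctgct
Bhlhe41: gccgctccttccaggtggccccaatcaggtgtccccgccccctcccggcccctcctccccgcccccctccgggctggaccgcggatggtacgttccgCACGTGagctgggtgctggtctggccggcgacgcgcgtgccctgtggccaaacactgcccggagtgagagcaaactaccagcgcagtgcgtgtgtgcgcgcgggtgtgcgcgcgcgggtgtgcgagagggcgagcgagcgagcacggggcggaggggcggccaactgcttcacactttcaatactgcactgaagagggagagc
Chac1: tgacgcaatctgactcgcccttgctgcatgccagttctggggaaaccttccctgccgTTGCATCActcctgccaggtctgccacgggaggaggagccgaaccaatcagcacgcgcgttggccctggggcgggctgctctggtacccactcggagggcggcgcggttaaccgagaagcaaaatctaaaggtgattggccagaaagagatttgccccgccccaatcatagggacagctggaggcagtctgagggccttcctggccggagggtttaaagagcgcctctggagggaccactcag
Hspa1a: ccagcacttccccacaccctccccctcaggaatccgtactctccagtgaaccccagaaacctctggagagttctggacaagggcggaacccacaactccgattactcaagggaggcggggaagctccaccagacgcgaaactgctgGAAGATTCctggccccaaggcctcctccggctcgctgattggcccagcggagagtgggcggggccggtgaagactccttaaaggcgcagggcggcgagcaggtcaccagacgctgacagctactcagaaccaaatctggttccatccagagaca
Hspa1b: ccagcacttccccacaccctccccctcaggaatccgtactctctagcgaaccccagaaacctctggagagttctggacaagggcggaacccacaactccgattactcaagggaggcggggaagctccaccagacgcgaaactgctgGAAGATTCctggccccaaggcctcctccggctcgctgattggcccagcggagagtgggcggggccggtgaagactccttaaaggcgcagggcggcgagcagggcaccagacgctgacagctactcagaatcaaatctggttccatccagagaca

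In Bnip3 and Bhlhe41 the letters CACGTG hold the core on both strands, from 108 and 153 bases before the start. The Chac1 element begins 193 bases before the start. In Hspa1a and Hspa1b the same letters GAAGATTC begin 104 bases before the start, and the windows differ at 4 of 300 positions. The log2 folds of these 5 genes were 3.37, 4.09, 3.06, 5.47 and 4.99 in the authors' deposited table.

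In a list of 24 circadian clock genes made after its values were seen, 6 were higher and 0 lower. Beside Bhlhe40 and Bhlhe41, the repressor Per1 had a log2 fold of 1.003, the factor Nfil3 one of 1.39 and Rora one of 2.75 in the authors' deposited table. The core genes Clock, Arntl, Per2 and Cry1 were not listed. The Bhlhe40 and Bhlhe41 genes and Rora stand in the low-oxygen list as well.

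Stress genes were listed to differing extents. The amino acid stress response, in which the factor ATF4 raises genes for amino acid import and synthesis, had 19 higher and 1 lower of 52, and their median log2 fold was 1.54 by the authors' deposited table. Glutathione-degrading Chac1 (3.06), the ATF4 inhibitor Trib3 (1.96), asparagine synthetase, Asns (1.88), and the factor Atf3 (1.85) rose with the carriers given above as log2 folds in the authors' deposited table. The mitochondrial folate enzymes Mthfd1l (1.23), Shmt2 (1.05) and Mthfd2 (0.99), and the related Aldh1l2 (1.70), were higher, whereas Mat2a, which makes the methyl donor, was lower at -1.34 in the log2 values of the authors' deposited table. The unfolded protein response, which shares this arm, had 1 higher and 1 lower of 31, Ero1l (2.27) and Syvn1 (-0.55) (log2 folds from the authors' deposited table), and the chaperone gene Hspa5 and the factor gene Ddit3 were not listed.

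Heat shock genes had 3 higher and 1 lower of 36. Hspa1a was 44.3-fold and Hspa1b 31.8-fold higher in the authors' deposited table, but 58.8% of the 50-nt stretches of the longest Hspa1a transcript also occur in Hspa1b, so reads can be shared between them. Hspb1, a small chaperone, was higher at 2.12 and Dnaja1 lower at -0.55 as log2 folds in the authors' deposited table. Immediate early genes had 6 higher and 0 lower of 38, led by Ier3 (3.50) and Fos (3.37) in the authors' deposited table, and Egr1, Jun and Junb were not listed. Oxidative stress and metal response genes had 7 higher and 0 lower of 45, with a median longest transcript of 1569 nt. They were the glutathione transferase Gstt1 (2.26), the thioredoxin inhibitor Txnip (2.14), Selenbp1 (2.13), the metallothioneins Mt1 (2.04) and Mt2 (1.74), haem oxygenase, Hmox1 (1.33), and the peroxidase Gpx3 (1.04), as log2 folds of the authors' deposited table.

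The p53 list had 4 higher and 4 lower of 37, and 3 and 0 at the 0.01 level. The higher ones were the mTOR inhibitor Ddit4 (2.94), the BH3 death genes Pmaip1 (2.20) and Bbc3 (1.52) and the death receptor Eda2r (1.22), while the arrest gene Rprm (-1.65) and the kinase Plk3 (-1.56) were lower in the log2 values of the authors' deposited table. Cdkn1a and Mdm2, 2 standard p53 targets, were not listed. Growth arrest genes had 4 higher and 0 lower of 23, 2 and 0 at the 0.01 level, with Gadd45b at 2.09, Cdkn1b at 1.23 and the imprinted Cdkn1c at 0.47 (log2 folds from the authors' deposited table). None of 71 DNA replication and mitosis genes was listed.

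Genes tied to NF-kappaB, lysosomes, and contractile cytoskeleton were read from lists that were made after their values were seen. NF-kappaB pathway and target genes had 8 higher and 0 lower of 40, 4 and 0 at the 0.01 level, among them the costimulatory receptor Tnfrsf9 (3.12), the adhesion molecule Icam1 (1.63), the pentraxin Ptx3 (1.63) and the feedback inhibitor Tnfaip3 (1.42) as log2 folds in the authors' deposited table. Lysosomal genes had 8 higher and 0 lower of 63, and 3 and 0 at the 0.01 level. The ganglioside activator Gm2a was at 1.29, the cathepsin Ctsl at 1.11, acid alpha-glucosidase, Gaa, at 1.08 and beta-hexosaminidase, Hexa, at 1.05 in the log2 values of the authors' deposited table. Targets and regulators of SRF and YAP-TEAD had 10 higher and 1 lower of 34, and 5 and 1 at the 0.01 level. The smooth muscle genes Acta2 (3.35), Tagln (2.94) and Myl9 (1.59), caveolin, Cav1 (2.25), and the matricellular Cyr61 (1.49) were higher, and the SRF coactivator Mkl1 was lower at -0.90 (log2 folds from the authors' deposited table). Annexins had 3 higher and 0 lower of 12, also in a list made with the values known.

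Interferon and inflammasome genes, in a further list of this kind, had 7 lower and 3 higher of 56, a share near that of all listed genes, and 3 lower and 2 higher at the 0.01 level. The DNA sensor Aim2 (-2.32), its relative Mnda (-2.31), Slfn9 (-1.81) and the inflammasome sensor Nlrp3 (-1.45) were lower, as was the interferon factor Irf9 (-0.92), as log2 folds in the authors' deposited table. The higher ones were the class II antigen gene H2-Ab1 (3.05), the thymic factor Aire (2.45) and Gbp6 (1.73), in the authors' deposited table. None of 28 macrophage and neutrophil markers was listed.

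Histone genes had 9 higher and 1 lower of 101, with 91 not listed, and their median log2 fold over the listed members was 2.30 by the authors' deposited table. The linker histones Hist1h1d (3.06) and Hist1h1c (2.73), the H2A and H2B genes Hist3h2a (2.78) and Hist1h2be (2.64) and the H3 gene Hist2h3c1 (2.53) had the largest log2 folds in the authors' deposited table. Most histone messages end in a stem-loop rather than a poly(A) tail, so libraries of polyadenylated RNA record a minor form of them. The lower one was the macroH2A gene H2afy (log2 -0.31 in the authors' deposited table), whose message is polyadenylated.

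The RNA polymerase II list, made after its values were seen, had 8 lower and 1 higher of 73, with 64 not listed, and 4 lower and 0 higher at the 0.01 level. Its largest subunit, Polr2a, was at 48.6% of the wild type level (log2 -1.04), the Mediator subunit Med14 at -0.68, and the elongation kinases Cdk13 and Cdk12 at -0.52 and -0.48 in the authors' deposited table. The higher member was Polr2d, at 0.34 in the log2 values of the authors' deposited table. The lower members had a median longest transcript of 6851.5 nt. The list of chromatin enzymes had 9 lower, Chd7 included, and 4 higher of 202, and 2 lower and 3 higher with absolute log2 folds of 1 or more. These counts omit the BAF subunit gene Actl6b, which was listed lower (log2 -2.08 in the authors' deposited table) and stands in no list. The higher ones held the Polycomb reader Cbx8 (1.77) and the low-oxygen demethylase Kdm3a (1.01), and the lower ones held the remodeller subunits Smarcc2 (-0.84) and Ep400 (-0.50), with log2 folds from the authors' deposited table. The lower chromatin members had a median longest transcript of 7017.5 nt. Zinc finger genes had 14 lower and 5 higher of 470, 6 and 3 at the 0.01 level, with a log2 fold of -1.04 for the lowest, Zfp41, in the authors' deposited table. In either direction 4.04% of this list was listed, near the background of 1.79% higher and 2.96% lower over all protein-coding genes. With absolute log2 folds of 1 or more they had 2 lower and 3 higher.

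Ribosomal protein genes had 23 higher and 0 lower of 87, 9 and 0 at the 0.01 level, with log2 folds between 0.69 (Rpl19) and 1.39 (Rpl22l1) in the authors' deposited table. Their median longest transcript was 1059 nt. Of the 23, 4 had an absolute log2 fold of 1 or more. Translation factors and tRNA synthetases had 3 higher and 2 lower of 98, with the translation inhibitor Eif4ebp1 at 1.99 (log2 folds from the authors' deposited table). Proteasome and ubiquitin genes had 11 lower and 4 higher of 457, and 4 and 2 at the 0.01 level. In either direction 3.28% of them were listed, beside 1.79% higher and 2.96% lower over all protein-coding genes.

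Noncoding RNAs with a name had 7 higher and 6 lower of 285, and 2 higher and 4 lower at an adjusted p of at most 0.01. Miat, a nuclear RNA of neurons and retina, was at 18.3% of the wild type level with an adjusted p given as 0 in the authors' deposited table. Rmst (2.06), Snhg12 (1.38), Malat1 (1.19) and Snhg1 (1.06) were higher, and Dnm3os (-1.27), a host of microRNAs in mesenchyme, and Mir17hg (-1.18), the host of a growth-promoting microRNA cluster, were lower as log2 folds in the authors' deposited table. The annotation classes 8 of the higher genes and 0 of the lower ones as transcribed pseudogenes. Reads of such copies can come from their parents. Of the 50-nt stretches in the longest transcript, Rpl34-ps1 (log2 2.30 in the authors' deposited table) shared 71.5% with Rpl34, and Rps19-ps3 (0.94) shared 24.7% with Rps19. Of the germline aldolases, Aldoart1 (2.34) shared 4.69% and Aldoart2 (2.17) 0 with the glycolytic gene Aldoa, which was itself at 2.21 in the log2 values of the authors' deposited table. Only identical stretches were counted. Whether reads of Aldoa were assigned to these aldolases with mismatches was not tested.

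Those aldolases stand in a list of 42 meiosis and male germline genes, made after its values were seen, of which 6 were higher and 1 lower, and 3 and 0 at the 0.01 level. The synaptonemal complex genes Sycp1 (2.38) and Syce2 (1.18) and the meiotic chromatin reader Zcwpw1 (1.37) were higher, and the sperm gene Pmfbp1 (-2.51) was lower, with log2 folds from the authors' deposited table. Imprinted genes had 5 higher and 0 lower of 46. Phlda2 (3.03), a growth-limiting gene of the placenta, Ascl2, Dlk1, Cdkn1c and Mest (0.41) were the 5, with log2 folds from the authors' deposited table, and at an adjusted p of at most 0.01 1 of them was left.

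Markers of the tissues that a dissection can include were read beside these results. Otocyst epithelium markers had 13 lower and 1 higher of 51, neuroblast and cranial ganglion genes 30 lower and 0 higher of 54, and hindbrain and neural tube markers 13 lower and 2 higher of 47. Neural crest and melanoblast markers had 5 lower and 0 higher of 31, with Fabp7 at -2.42 (log2 fold from the authors' deposited table). Periotic mesenchyme markers had 5 lower and 4 higher of 40. Red cell markers had 4 lower and 0 higher of 32, Spna1 (-1.81), Hba-a2 (-1.47), Slc4a1 and Car2 by the authors' deposited table, and 86.9% of the Hba-a2 stretches of 50 nt also occur in Hba-a1. None of the 4 had an adjusted p of at most 0.01. Endothelial markers had 6 higher and 2 lower of 36, 3 and 1 at the 0.01 level, with the sinusoidal receptor Stab2 at 2.23 and the tip cell gene Esm1 at 1.95, and Pecam1 at 0.92 and Cd34 at -0.81 as log2 folds in the authors' deposited table. Endoderm and yolk sac markers had 2 higher of 37, Gata6 and the liver factor Hnf4a (log2 2.65 in the authors' deposited table), and 35 not listed. The share of each tissue in the libraries and its part in these results were not tested, and since levels in each library were not used here, the tissue label could not be set against the absolute level of its markers.

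Of the 1085 genes 397 stood in no gene list, 128 higher and 269 lower, with median log2 folds of 1.17 and -1.09 by the authors' deposited table. The rule for naming took the largest. Beside the Mab21l genes, the largest falls in the authors' deposited table belonged, as log2 folds, to Akap6 (-3.49), a kinase anchor of the nuclear envelope, the muscle growth inhibitor Mstn (-3.21), the neuronal APC relative Apc2 (-3.20), lactoperoxidase, Lpo (-2.79), and the ataxia gene Atcay (-2.78). The adaptor Shc3 (-2.66), the muscle lineage factor Msc (-2.46), the neuronal endopeptidase Ecel1 (-2.41) and Actl6b (-2.08), the neuron-specific subunit of the BAF remodelling complex, followed in the log2 values of the authors' deposited table.

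Of the higher genes outside the lists, Tmem45a (2.68), the pyrimidine salvage enzyme Upp1 (2.47), the stress-responsive Ndrg2 (2.34), the small GTPase Gem (2.09) and the ceramidase Acer2 (1.86) are named here after their values were seen (log2 folds from the authors' deposited table). The BMP and Wnt antagonist Sostdc1 was at 1.78, the phosphodiesterase Pde4b at 1.60 and the peripheral myelin gene Pmp22 at 1.42 as log2 folds in the authors' deposited table. Among the 12 largest rises, Taar5, a receptor for volatile amines in the nose, had a log2 fold of 4.20 by the authors' deposited table. Gnat3, the taste transducin, had the largest fall of all genes, to 4.42% of the wild type level in the authors' deposited table. Both belong to chemosensory signalling. The other G protein signalling genes listed included the neuronal subunits Gng3 (-1.66) and Gnao1 (-1.26) and the regulators Rgs8 (-2.07), Rgs11 (1.73) and Rgs9bp (3.49), with log2 folds from the authors' deposited table.

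Kinases, phosphatases and small GTPase regulators had 21 lower and 10 higher of 514. The lower ones included the receptor phosphatase Ptpro (-2.22), the vesicle GTPase Rab3c (-2.19), the striatum-enriched phosphatase Ptpn5 (-2.09) and the dendritic kinase Pak3 (-1.63) in the log2 values of the authors' deposited table. The higher ones held the survival kinases Pim3 (1.72) and Pim1 (1.14) and the PI3 kinase inhibitor Pik3ip1 (1.48) (log2 folds from the authors' deposited table). Actin, myosin and muscle genes had 4 higher and 6 lower of 134, and 3 higher and 2 lower at an adjusted p of at most 0.001. The 6 lower ones had a median longest transcript of 6948 nt. Myo7a, the hair cell motor and deafness gene, was lower by a small amount, at -0.38 (log2) by the authors' deposited table.

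The balance of higher and lower genes also differed by chromosome. On chromosome 1, 66 of 76 listed genes were lower, 86.8%, and on chromosome 15, 26 of 33, 78.8%. On chromosome 7, 37 of 77 were lower, 48.1%, and on chromosome 18, 11 of 23, 47.8%. Chromosome 4, which carries Chd7, had 42 lower of 73, 57.5%. Genes that lie close together can share regulation, and these shares were not tested.

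**Figure D4:**
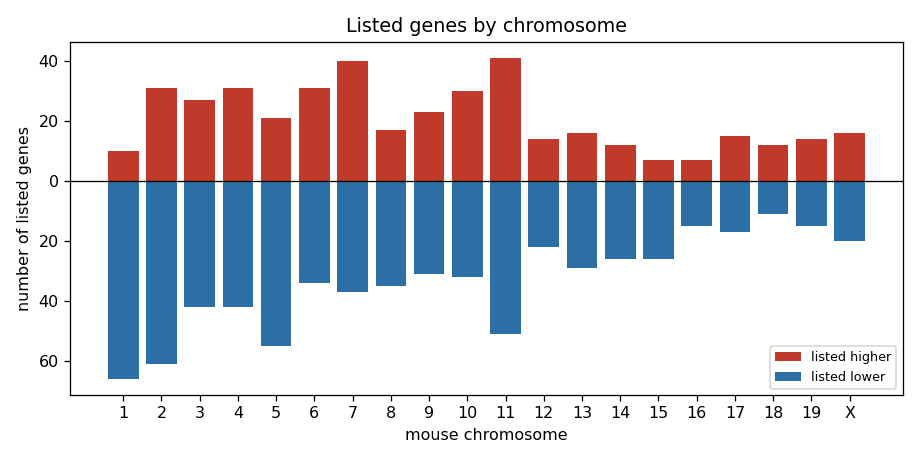
Bars count the genes listed higher (above 0) and lower (below 0) in homozygous otocysts on each mouse chromosome, from RefSeq positions of the matched genes. Chromosome 1 has 66 lower and 10 higher genes, and chromosome 7 has 37 lower and 40 higher.

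Of the 1085 genes 56 were also listed for heterozygous otocysts, a comparison that uses the same 2 wild type libraries, so the values are given side by side and nothing is drawn from their match. For Barx1, a homeobox gene of jaw and stomach mesenchyme, the log2 folds in the authors' deposited table were -2.11 in heterozygotes and -2.89 in homozygotes. They were -0.78 and -3.58 for Mab21l2, -0.74 and -3.43 for Mab21l1, -1.66 and -2.14 for the chemokine Cxcl14, and -1.28 and -2.41 for Ecel1 in the authors' deposited table. Kbtbd11 (-0.79 and 1.06) and Xkr7 (0.71 and -1.80) had opposite signs in the authors' deposited table, and the difference between the genotypes was not tested. The heterozygous lists held 138 genes in all, and none of the glycolysis or low-oxygen members was among them. The 40 listed genes of the synaptic vesicle, neurosecretory and neurofilament list had 1 there, and the 23 listed ribosomal protein genes 0. Absence from so short a list does not show that a gene was unchanged.

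**Figure D5:**
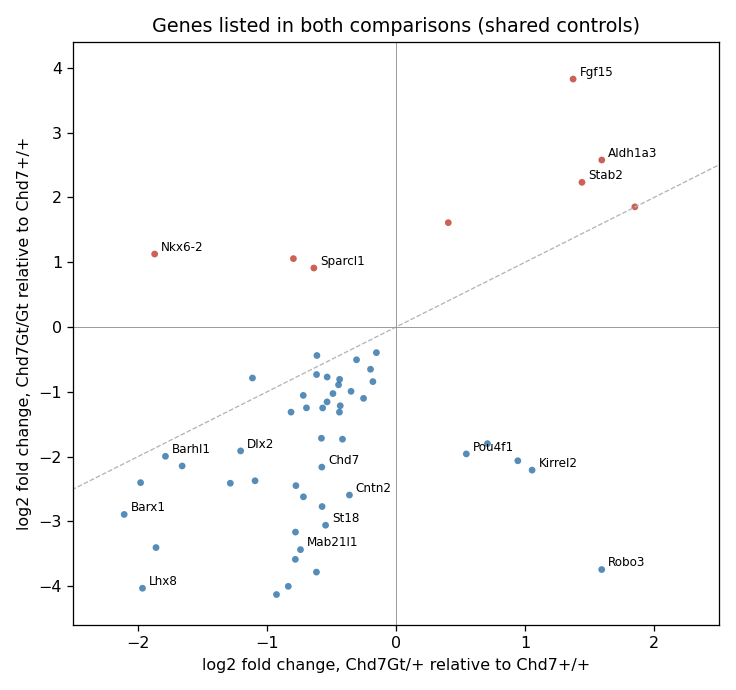
Each point is 1 of the 56 genes listed in both comparisons, with its log2 fold change in heterozygous otocysts on the horizontal axis and in homozygous otocysts on the vertical axis, from the authors' deposited table; the dashed line marks equal values. Both axes use the same wild type libraries, so points near the diagonal are not independent support, and 8 genes have opposite signs.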

How the data were processed

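Polyadenylated RNA from otocysts was prepared with the Illumina TruSeq v2 kit, in 2 libraries per genotype, per the labels' protocols. Tools named in the submitters' processing notes are Bowtie2 (2.0.6) and DESeq (1.22.1), beside genome build mm9; their order and settings are not stated. Filters, normalization and the treatment of reads shared by related genes: not given in the sources used here. The authors deposited lists of called genes and, per gene, the log2 fold change with its adjusted p-value, always under 0.05. The planned count test needs values per library and was not run, so every call is the authors' own, and a gene outside the lists is written as not listed. Depth per library is unknown.

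Symbols were matched to RefSeq genes, 989 directly and 93 through synonyms, with 3 unmatched. Transcript lengths and shared stretches came from GENCODE M21, and promoter windows from RefSeq GRCm38.p6, another build than the submitters', so no coordinates of theirs are used. Of 81 gene lists, 67 were written first and 14 after values were seen; genes can stand in several lists. The members and lists were chosen with earlier results of these data known. Genes named are Chd7 and Aldh1a3, in each direction the 12 largest folds and 6 smallest adjusted p-values, up to 8 members per list by fold plus those completing a subfamily or described for their role after their values were seen, and genes among the 40 largest in no list per direction. Other genes named for their role stand with their values. Some genes that this rule would name are not reported here. No test of a list was made. Alternatives were adjusted p at most 0.01 or 0.001, an absolute log2 fold of at least 1, and matched symbols alone. Counting was tested on simulated lists. Computation used Python 3.11.15, pandas 2.3.3, numpy 2.4.6 and matplotlib 3.10.9.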

Additional observations from a re-analysis of the deposited data

How the results depend on the processing

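At an adjusted p of at most 0.01 the lists held 253 higher and 394 lower genes, and at 0.001 they held 166 and 225, with 57.5% lower in place of 61.7%. With absolute log2 folds of 1 or more they held 290 and 449 genes, and with matched symbols alone 415 and 667. Of the 74 gene lists with a majority in 1 direction, 63 kept it at an adjusted p of 0.01, 58 at 0.001, 66 at the fold minimum and 74 with matched symbols. The majority turned in 5, 7, 4 and 0 lists, and the other lists were tied or had no member left. The cause was not tested, and each stricter setting keeps fewer genes by construction.

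No paired analysis was possible because the deposited values are comparisons between genotypes, with no values per library to block by replicate. Leaving out a library and other normalizations or tools were not run for the same reason. The libraries' depth is unknown, so the smallest detectable change is unknown.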
